A study of Penicillium oxalicum with 6 samples.

Results

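In Penicillium oxalicum mycelium grown on cellulose, 50 genes lay in 9 stretches of consecutively numbered genes that were all lower in the POX05503 mutant. The stretches were found with R, the log2 of the ratio of mean FPKM + 1 in MuPOX05503 to mean FPKM + 1 in Ku70; FPKM is a read level scaled to gene length and library depth. A stretch is a run of at least 5 consecutive gene numbers that all have R of -0.9 or lower, which is a 1.87-fold lower level. Of 9834 genes, 68 lay in 11 such runs. Those between POX09332 and POX09361 (2 runs, 17 genes) and POX06601, a gene inside 1 of the others, were left out, which leaves 50 members of 51 genes in 9 stretches. POX07535, which the rule also leaves out, lay in none of the 11 runs. Because the members were chosen on the strain contrast, their fall is a description and carries no test.

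RNA was sequenced from mycelium of 2 strains of this filamentous fungus, which secretes cellulases and xylanases, with 3 libraries each. MuPOX05503 is the mutant in POX05503, which the series title gives as a deletion in a project on protein kinases. Ku70 is the comparison strain, named for a mutation in Ku70, a protein of non-homologous end joining whose loss is commonly used to ease targeted gene replacement in fungi. The growth protocol of all 6 libraries names spores of the Ku70 mutant, and whether MuPOX05503 also carries that mutation is not stated in the labels. In both groups about 1 g of hyphae was shaken for 24 h at 28 °C and 180 rpm in 100 mL of a basic medium whose carbon source was 1% Avicel, a form of microcrystalline cellulose. Separate cultures are not stated for the 3 libraries of a strain, so the spread between them may be technical.

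In filamentous fungi, the genes that make a secondary metabolite commonly lie side by side in the genome, and many such clusters are switched together by a regulator encoded within them or by the state of their chromatin. Some pathways for using a particular nutrient are arranged in the same way. Protein kinases pass signals of nutrients and stress on to transcription factors, and several of them act on the enzymes and metabolites that a fungus secretes. The files hold only identifiers, with 0 of 9834 found in the RefSeq gene table of this species, so no member can be given a product. Whether consecutive numbers are neighbours on a chromosome is not given in the sources used here.

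Total expected counts were 13653016 to 14263916 per library. POX05503 had an expected count of 0 in the 3 MuPOX05503 libraries and of 470 to 539 in the Ku70 libraries. Log2(FPKM + 1) values of the 8801 genes tested had correlations of at least 0.985 within a strain and of 0.841 to 0.857 across strains. In such bulk RNA, fewer hyphae that express a gene and less of its RNA per hypha cannot be told apart.

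The members were lower by a median R of -1.84, a 3.59-fold lower level, where the median tested gene had an R of 0.12. Single members ranged from -0.90 to -8.34. A level at least 4-fold lower was found for 23 of the 50 and a level at least 16-fold lower for 5. Of all 9834 genes, 11.4% had an R of -0.9 or lower. All 50 members passed the filter of at least 1 FPKM in at least 3 libraries, 2 of them through Ku70 alone. All 50 were lower with edgeR's quasi-likelihood test at an adjusted p under 0.05, as were 32.6% of the tested genes, and in all 50 every mutant library lay below every Ku70 library, as in 29.7% of the tested genes. Since the rule used this contrast, nothing is read from these counts. With FPKM rescaled by TMM factors, which moved the median tested gene by -0.11, the rule gave 16 stretches with 82 members, all 50 among them. Without MuPOX05503 replicate 1 it gave 14 stretches with 76 members, 44 of them among the 50.

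**Figure D1:**
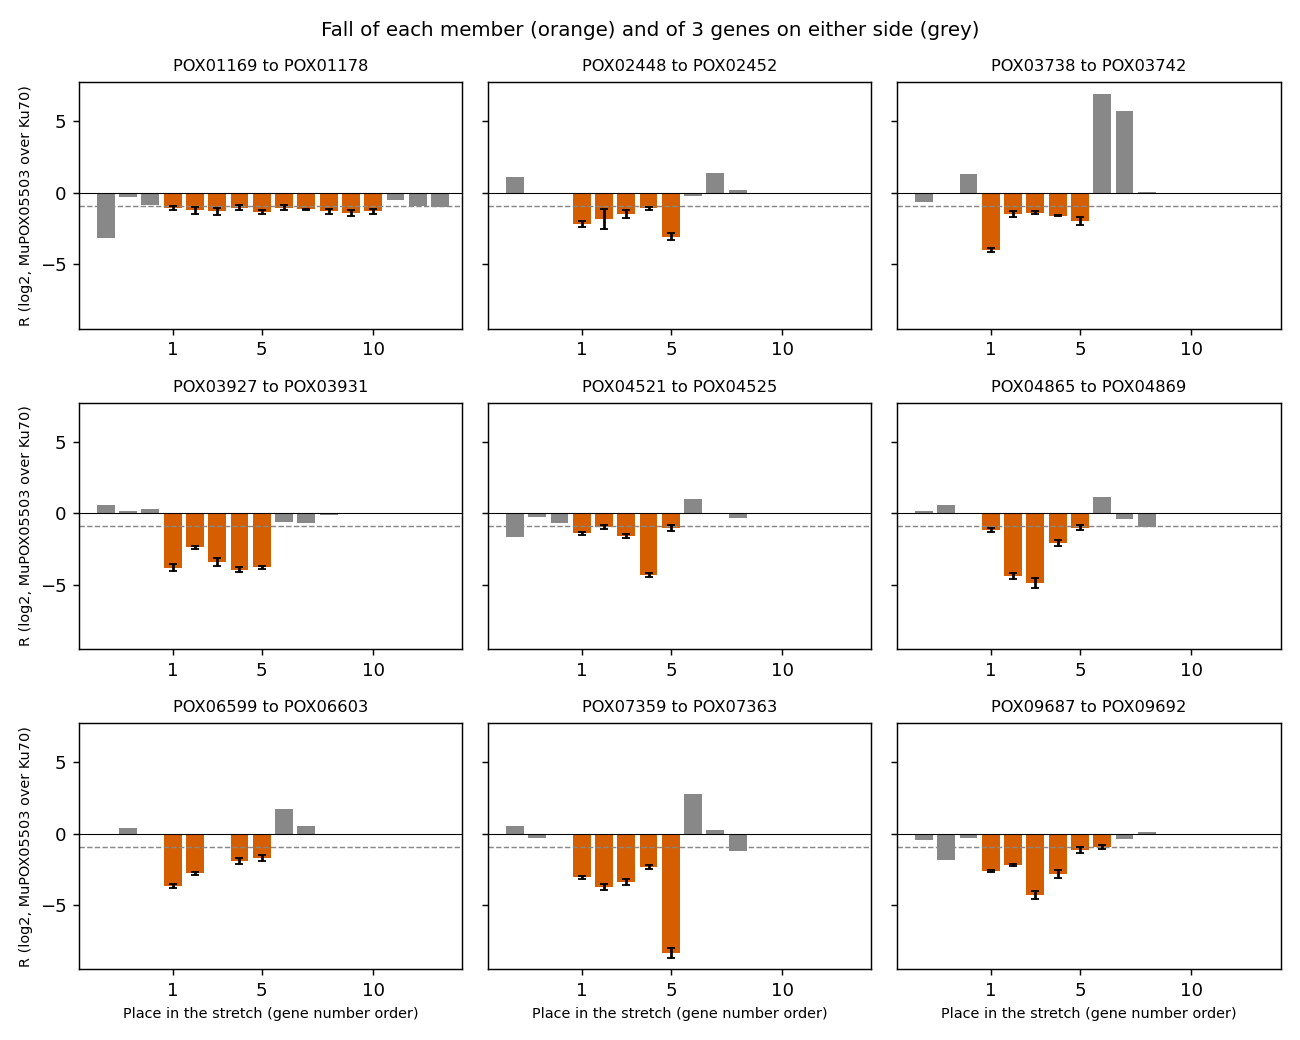
R (log2, MuPOX05503 over Ku70) for each member of the 9 stretches in orange, with error bars of 1 SE over libraries, and for the 3 numbers on either side in grey; the dashed line is the limit of -0.9. POX06601, the third place of POX06599 to POX06603, is left out. POX01169 to POX01178 fell by nearly the same amount throughout, whereas some of the others, such as POX07359 to POX07363, hold a member that fell far more than the rest.

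The longest stretch, POX01169 to POX01178, was also the most abundant and the most even. Its 10 genes held 3.57 ± 0.216% of the counts of a Ku70 library and 1.52 ± 0.281% of those of a mutant library (SD, n = 3), and made up 89.3% of the counts of all 50 members in Ku70. POX01176, its most abundant gene, stood at 9895, 11607 and 10517 FPKM in the Ku70 libraries and at 5010.2, 3494 and 4599.7 FPKM in the MuPOX05503 libraries. Its Ku70 values thus lay well above its mutant values, and MuPOX05503 replicate 2 was the lowest. The first gene, POX01169, went from 3467 ± 134 to 1676 ± 311 FPKM, and the last, POX01178, from 1798 ± 127 to 736 ± 132 FPKM (SD, n = 3). Mean levels of the 10 genes spanned 701 to 10673 FPKM in Ku70 and 304 to 4368 FPKM in the mutant, so the least and the most abundant stood 15.2-fold apart in one strain and 14.4-fold apart in the other. The fall was nearly the same for all of them, from -1.02 for POX01172 to -1.38 for POX01177, with a median R of -1.24.

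**Figure D2:**
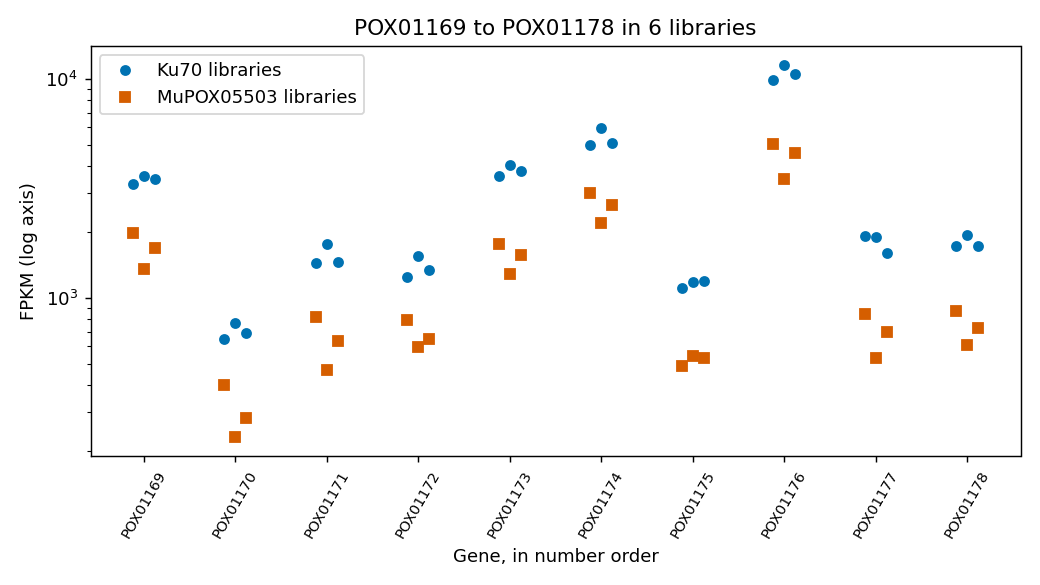
FPKM (log axis) of the 10 genes of POX01169 to POX01178, in number order, in the 3 Ku70 libraries (circles) and the 3 MuPOX05503 libraries (squares). The mutant libraries lie below the Ku70 libraries for each gene, as for 29.7% of the tested genes. The 10 genes were chosen for a lower level in the mutant, so this is a description. The gap between the strains is similar from POX01170 at 701 FPKM to POX01176 at 10673 FPKM in Ku70.

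The SD of R over these 10 genes was 0.13, below the median SE of a single member over libraries, 0.16. Much of that SE was shared, since 9 of the 10 genes were higher than their strain mean in MuPOX05503 replicate 1 and 9 were lower in MuPOX05503 replicate 2. With the mean of the stretch taken out of each library, the median SE was 0.05, so the small spread between genes exceeded that error. For 5 of the 10 genes the fall differed from the mean fall of the stretch by more than 3 such SE. The level of POX01177 relative to POX01172, the genes with the lowest and the highest R, was 1.54, 1.22 and 1.196 in Ku70 and 1.07, 0.898 and 1.07 in the mutant. Both genes were picked for their R, so this ratio shows the size of the widest gap within the stretch and nothing further.

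POX03927 to POX03931 had the lowest median R, -3.78, a 13.7-fold lower level. Its genes were 19.7-fold lower as a share of all counts, with 0.0509 ± 0.00783% in Ku70 and 0.00258 ± 0.000225% in MuPOX05503 (SD, n = 3). POX03930, the most abundant and the one with the lowest R, had 157, 235 and 232 FPKM in Ku70 and 12.3, 13.9 and 12.1 FPKM in the mutant. Ku70 replicate 1 was the lowest of its strain, still over 10 times the highest mutant library. Of the 5 genes, 4 had an R between -3.93 and -3.40, and POX03928 had the highest, -2.37. POX03931 has an implied length of 9947 bases, the longest of all members. It had 17.1, 19.5 and 17.8 FPKM in Ku70 and 0.590, 0.270 and 0.330 FPKM in the mutant, so the added 1 FPKM holds its R at -3.78 where the edgeR log2 fold change on counts was -5.61.

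POX07359 to POX07363 held the deepest fall. POX07363 had 1221, 1485 and 1163 FPKM in Ku70 and 1.48, 4.73 and 2.78 FPKM in MuPOX05503, an R of -8.34. The other members of this stretch lay at 23.7 to 40.5 FPKM in Ku70 and 1.24 to 3.94 FPKM in the mutant, with R from -2.32 for POX07362 to -3.72. The mean level of POX07363 was thus far above the others in Ku70, and in the mutant it was 2.997 FPKM and lay within their range. Its level relative to POX07362 was 64.5, 54.7 and 46.3 in Ku70 and 0.370, 1.25 and 0.688 in the mutant. Both genes were picked for their R, so this ratio only gives the size of the widest gap. Without POX07363, the other members had falls within 1.40 of each other on the log2 scale.

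POX04521 to POX04525 and POX03738 to POX03742 likewise held one gene that fell far more than the rest. POX04524 had 415, 417 and 428 FPKM in Ku70 and 18.0, 18.3 and 24.3 FPKM in MuPOX05503, an R of -4.31. Its strains were clearly apart, with little spread in Ku70. The other members of that stretch had R from -0.95 for POX04522, near the limit, to -1.56. POX04521, the first, went from 23.9 ± 3.35 to 8.44 ± 0.235 FPKM, and POX04525, the last, from 9.13 ± 1.73 to 4.05 ± 0.837 FPKM (SD, n = 3).

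In the other of these stretches POX03738 had 81.5, 80.4 and 66.4 FPKM in Ku70 and 3.37, 4.20 and 4.18 FPKM in the mutant, an R of -3.97. It was the most abundant member in Ku70 and only the fourth of 5 in the mutant. The other members had R from -1.38 for POX03740 to -1.96 for POX03742, which went from 53.6 ± 2.49 to 13.0 ± 4.52 FPKM (SD, n = 3). POX03739 rests on few reads, with expected counts of 10, 10 and 12 in Ku70 and of 3, 2 and 1 in the mutant.

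In POX04865 to POX04869 the fall was deepest in the middle and shallow at both ends. POX04867 had 45.0, 68.1 and 82.9 FPKM in Ku70 and 1.86, 0.730 and 1.30 FPKM in MuPOX05503, an R of -4.85. Its Ku70 libraries differed 1.84-fold among themselves, much less than the strains did. POX04866 beside it had an R of -4.37 and POX04868 one of -2.05. At the ends, POX04865 went from 38.1 ± 5.48 to 16.7 ± 0.829 FPKM and POX04869 from 12.7 ± 2.89 to 5.85 ± 0.474 FPKM (SD, n = 3), with R of -1.15 and -0.996. The order of levels turned: POX04867 was the most abundant of the 5 in Ku70 and the least abundant in the mutant. Its level relative to POX04869 was 4.75 to 5.48 in the Ku70 libraries and 0.130 to 0.291 in the mutant libraries. These genes, too, were picked for the lowest and the highest R, so the ratio only sizes the gap between them.

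POX06599 to POX06603 fell less from the first gene to the last among the 4 members described. POX06599 had 387, 433 and 433 FPKM in Ku70 and 38.0, 28.8 and 29.6 FPKM in MuPOX05503, an R of -3.66. The strains were over 10-fold apart for it, with MuPOX05503 replicate 1 the highest mutant library. R was -2.77 for POX06600, -1.88 for POX06602 and -1.68 for POX06603. POX06603 went from 19.9 ± 3.65 to 5.53 ± 1.15 FPKM (SD, n = 3). The order of the 4 levels was the same in both strains.

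POX09687 to POX09692 was the only other stretch of more than 5 genes. POX09687, the most abundant, had 476, 454 and 446 FPKM in Ku70 and 72.8, 80.4 and 69.4 FPKM in MuPOX05503, an R of -2.61. The lowest R, -4.29, was that of POX09689, with 62.9, 64.7 and 80.8 FPKM in Ku70 and 1.50, 2.62 and 3.69 FPKM in the mutant. Both genes were well separated between strains, and neither shared its highest library with the other within a strain. The last gene, POX09692, lay just inside the limit with an R of -0.90, falling from 18.1 ± 1.62 to 9.23 ± 1.50 FPKM (SD, n = 3). This stretch was not found whole under 5 of the 18 other settings of the rule, POX04521 to POX04525 likewise.

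POX02448 to POX02452 had the lowest median level of the 9 stretches in Ku70, 9.83 FPKM; in MuPOX05503 its median was 2.04 FPKM, above the 1.73 FPKM of POX03927 to POX03931. POX02452, the last, had 99.9, 64.9 and 74.5 FPKM in Ku70 and 7.09, 9.54 and 9.58 FPKM in MuPOX05503, an R of -3.05. It stood far above the others in both strains. The first, POX02448, went from 12.9 ± 0.786 to 2.04 ± 0.799 FPKM (SD, n = 3). POX02451, with the highest R of -1.08, went from 2.53 ± 0.232 to 0.670 ± 0.207 FPKM. At these low values the added 1 FPKM weighs on R, and its edgeR log2 fold change on counts was -2.01. With edgeR the shallowest fall of this stretch was that of POX02450, at -1.83. POX02449 is short, with an implied 146 bases, and had expected counts of 22, 20 and 9 in Ku70 and of 6, 0 and 4 in the mutant. Its strains are the least clearly apart of all members, and its SE of 0.70 is the highest.

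**Figure D3:**
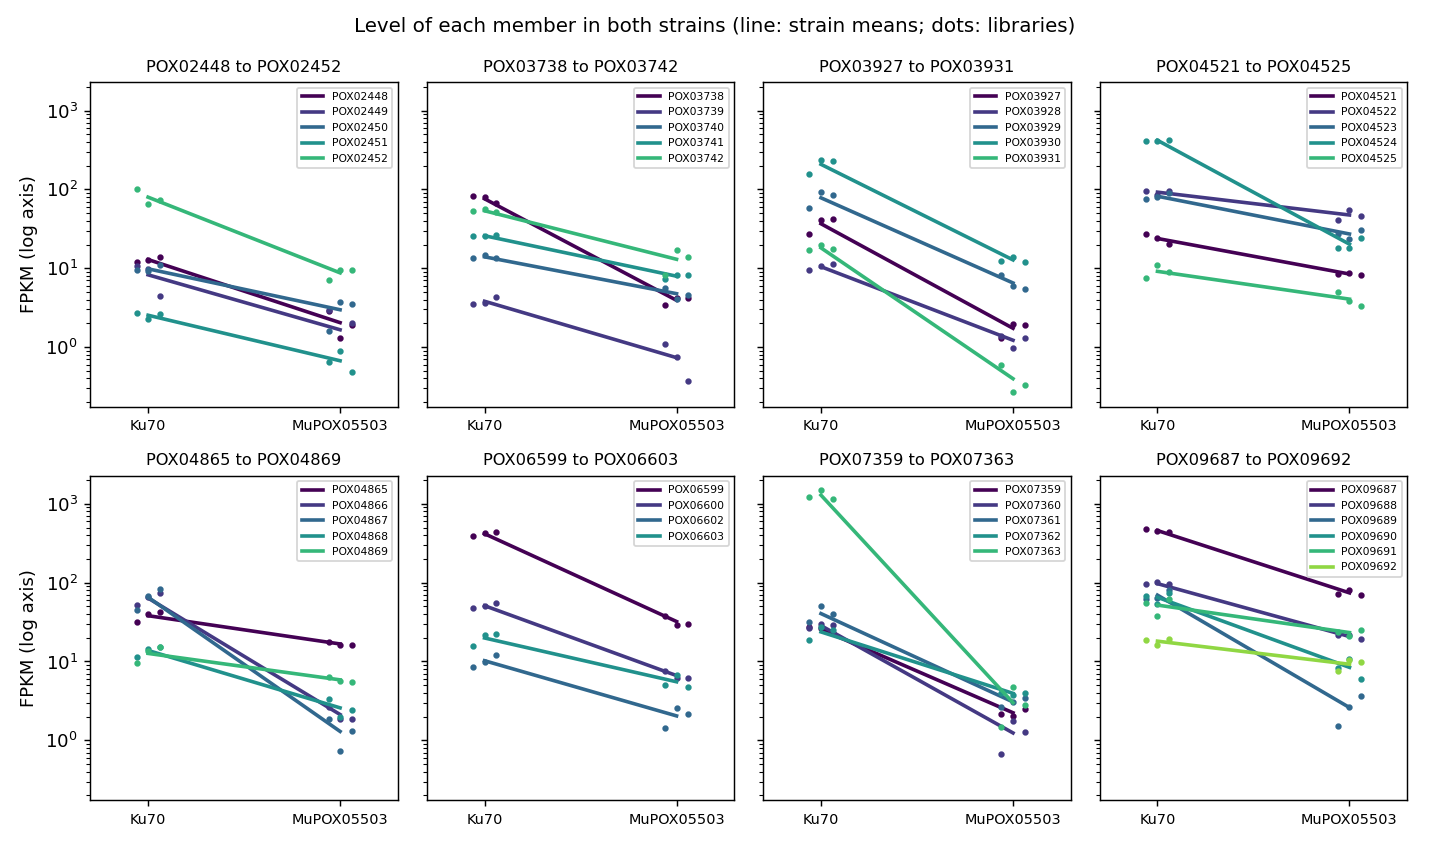
Mean FPKM (log axis) of each member in Ku70 and MuPOX05503 in the 8 stretches other than the longest, joined by a line, with dots for the 3 libraries of each strain; a library at 0 FPKM, POX02449 in MuPOX05503 replicate 2, is not drawn. The order of the members is the same in both strains in POX06599 to POX06603, where the levels also draw closer, and changes in the other 7, as in POX04865 to POX04869, where POX04867 goes from the highest to the lowest.

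The longest stretch had the smallest spread of R among its genes. The SD of R was 0.13 there and 0.64 to 2.39 in the other 8 stretches. This was 0.81 times the median SE of the members in the longest stretch and 3.20 to 12.1 times in the others. With the mean of the stretch taken out of each library, the ratio was 2.63 in the longest stretch and 3.36 to 27.0 in the others. Against that smaller error, the longest stretch was thus close to POX02448 to POX02452, at 3.36. The SD of R was the lowest of the 9 in POX01169 to POX01178 under each of the 9 alternatives tried, where it stayed between 0.12 and 0.17. The highest, 2.39 in POX07359 to POX07363, lay between 2.30 and 2.55 under the same alternatives. Next to the longest, POX03927 to POX03931 had the lowest SD with R, 0.64, and POX02448 to POX02452 the lowest with edgeR log2 fold changes, 0.59. The limit of -0.9 bounds R from above only, so a stretch with a deep fall can vary more than one near the limit, and this was not corrected for.

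The most abundant member in Ku70 was also the member with the lowest R in 7 of the 9 stretches. The exceptions were POX01176, in the even stretch, and POX09687. With edgeR log2 fold changes, which add almost nothing to low values, this held in 6 of 9, and with 0.1 or 5 FPKM added in place of 1 in 6 and 7. The level in Ku70 is part of R, so the relation is a description. In 5 of the 9 stretches the most abundant member was the same gene in both strains.

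The genes just outside the stretches ranged from far higher to lower in the mutant. Of the 18 genes numbered directly before or after a stretch, 8 had an R above 0 and 6 one of 0.9 or higher, and their median R was -0.02. By the rule these neighbours could not have an R of -0.9 or lower. Of all 54 genes within 3 numbers of a stretch, 7 had an R of -0.9 or lower and 9 one of 0.9 or higher. Among all genes 11.4% had an R of -0.9 or lower, and the share at 0.9 or higher is not given here. No excess of either kind beside the stretches is therefore read from these counts. Directly after POX03742, POX03743 had 0.967 ± 0.168 FPKM in Ku70 and 242 ± 76.0 FPKM in MuPOX05503, and POX03744 had 0.320 ± 0.277 and 69.1 ± 23.9 FPKM (SD, n = 3). From POX03742 to the next number, levels thus went from lower to far higher in the mutant. After POX07363, the gene with the deepest fall, POX07364 stood at 31.9 ± 9.26 FPKM in Ku70 and 224 ± 21.7 FPKM in the mutant. Other neighbours were lower. POX01168 before the longest stretch lay just outside the limit with an R of -0.83, at 590.5 ± 37.1 FPKM in Ku70 and 331 ± 28.5 FPKM in the mutant. On its other side POX01179 had an R of -0.48 at 7826 FPKM in Ku70, and POX01180 and POX01181 had R of -0.95 and -0.97 at 5885 and 5555 FPKM, so abundant genes with a lower level in the mutant went on past its end. POX01166, before it, had an R of -3.17. Near other stretches, R was -1.82 for POX09685, -1.67 for POX04518, -1.21 for POX07366 and -0.94 for POX04872, each separated from its stretch by at least 1 gene above the limit. These genes were chosen after their values were seen, except those directly beside a stretch.

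Whether the members of a stretch also moved together between libraries of one strain was not used by the rule, which takes strain means only. For each member, the deviation of log2(FPKM + 1) from the mean of its strain was taken in the 6 libraries, and deviations were correlated between members of a stretch. Members of a stretch share the library, its depth and its RNA, and each correlation rests on 6 deviations. These sum to 0 within each strain, so fewer than 6 are free, and values are given as a description. In 3 stretches the mean over pairs of members was 0.90 (POX04865 to POX04869, 10 of 10 pairs above 0), 0.62 (POX01169 to POX01178, 36 of 45) and 0.46 (POX03927 to POX03931, 9 of 10). In the other 6 it ranged from -0.21 to 0.25. Over all 6329 windows of 5 consecutive tested genes the median was 0.05. Only the median of the windows is given, and the 3 stretches are the highest of the 9. How unusual their means are was therefore not tested. POX01169 to POX01178 also holds 10 genes where a window holds 5.

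POX04865 to POX04869 moved as a unit: all 5 genes were below their strain mean in Ku70 replicate 1, above it in Ku70 replicates 2 and 3, above it in MuPOX05503 replicate 1 and below it in MuPOX05503 replicate 2. This was so although the genes fell by very different amounts between strains. In POX03927 to POX03931 all 5 genes were low in Ku70 replicate 1, with deviations down to -0.41 on the log2 scale. In POX01169 to POX01178 all 10 genes were above their strain mean in Ku70 replicate 2. POX01175 was the exception in the mutant libraries, where it was below its mean in replicate 1 and above it in replicate 2, opposite to the other 9. By contrast, in POX04521 to POX04525 no mutant library had more than 3 of the 5 genes on one side of the mean, nor did any Ku70 library. Of the 40 pairs of neighbouring members, 30 (75.0%) had deviations that correlated above 0, where 59.2% of the 8049 pairs of neighbouring tested genes did. With a pseudocount of 0.1 these shares were 67.5% and 59.2%, and with TMM factors 75.0% and 56.6%. Pairs within a stretch share members and are not independent, so the difference was not tested.

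**Figure D4:**
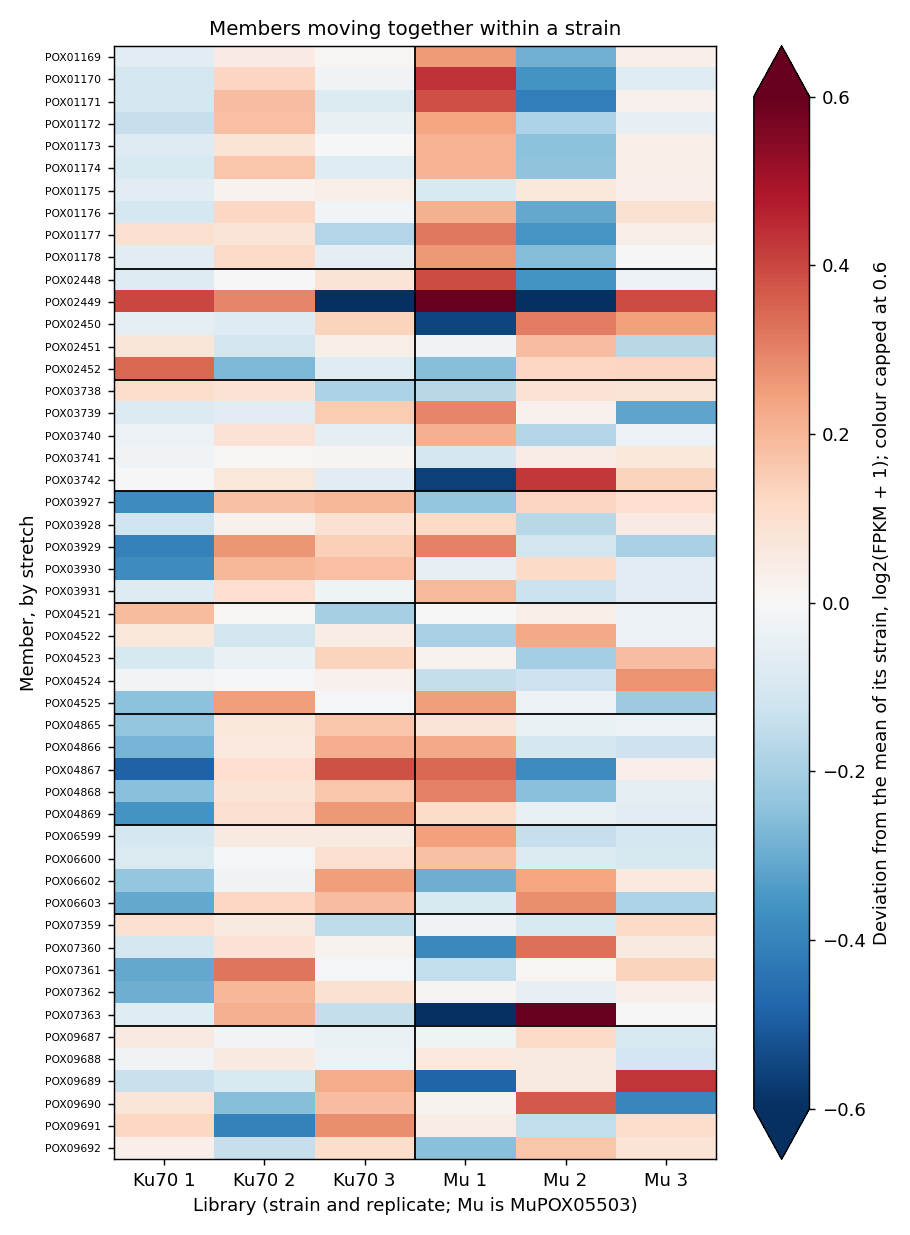
Deviation of log2(FPKM + 1) from the mean of its strain for the 50 members (rows, grouped by stretch) in the 3 Ku70 and 3 MuPOX05503 libraries (columns; colours capped at 0.6). All 5 genes of POX04865 to POX04869 lie on one side of the mean in every library but MuPOX05503 replicate 3, and at least 9 of the 10 genes of POX01169 to POX01178 do so in 4 libraries; no library has more than 3 of 5 on one side in POX04521 to POX04525.

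Length and read sharing were not used by the rule. The implied length of the members, from the pair of count and FPKM, had a median of 1104 bases and ran from 121 to 9947, against a median of 1223 bases over tested genes. An implied length under 400 bases was found for 9 of 50 members (18.0%) and for 12.04% of tested genes. Fractional expected counts (over 0.005 from a whole number) occurred in 0 of the 50 members and in 381 of all 9834 genes (3.87%). They can arise where reads are shared between genes, such as near-identical copies. The median level of the members was 58.7 FPKM in Ku70 and 7.28 FPKM in MuPOX05503, against 25.5 and 28.4 FPKM over tested genes. In Ku70 34 of the 50 stood above the median tested gene and in the mutant 13 did; these levels are tied to the rule. Runs of the same size in the other direction, with R of 0.9 or higher, numbered 7 with 38 genes, the longest of 7.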

How the data were processed

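The authors deposited 1 table per library with an expected count and an FPKM value for 9834 genes. The file headers give only the names expected count and FPKM. From these names, the counts were taken as estimates without normalization and the FPKM values as a scaling to gene length and depth. The submitters' processing notes name RSEM 1.2.12, Bowtie2 2.1.0, DESeq2 and BWA 0.7.10-r789, without saying what each did. The build, the annotation and strandedness were not given in the sources used here. Reads of genes that overlap in opposite orientation may be mixed.

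Libraries were grouped by the strain label, 3 and 3. No pair of libraries of one strain agreed within counting noise (chi-square per degree of freedom 10.5 to 47.3). R was computed from FPKM. For the background, expected counts rounded to whole numbers were tested over 8801 genes with edgeR 4.0.16 in R 4.3.3 (TMM, quasi-likelihood test, Benjamini-Hochberg adjustment, strain as the only term); the test and the search for stretches were first tested on simulated data. The SE of a member is that of the difference between strain means of log2(FPKM + 1). Implied lengths take the total expected count as the depth and may differ from annotated lengths. Counts limit precision at low values, and the intervals of replicates cover these libraries only. Members, lists and alternatives were chosen with earlier results of these data known. For each stretch the first and last gene, the most abundant in Ku70 and those with the lowest and highest R are named; other genes were named after their values were seen. Alternatives were other pseudocounts, limits, run lengths, scalings and filters, each library left out, limma 3.58.1 and DESeq2 1.42.0.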

Additional observations from a re-analysis of the deposited data

How the results depend on the processing

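The number of stretches and members depended on the settings of the rule, as 9 and 50 became 16 and 85 with a pseudocount of 0.1, 5 and 29 with 5, 16 and 82 at a limit of -0.8, 22 and 101 with at least 4 genes, 2 and 16 with at least 6, 16 and 82 with TMM or median-of-ratios factors, and 21 and 113 with one interrupting gene tolerated, a setting chosen after the data were examined. The limit of -1 gave 7 stretches with 39 members. Leaving out each library gave 8 to 14 stretches and 44 to 76 members. POX01169 to POX01178 was found whole under all 18 of these settings, and POX04521 to POX04525 and POX09687 to POX09692 under 13 each. No median R changed sign, from which nothing is read, since all members were chosen for a low R in these libraries. The median R of 7 stretches moved by more than the spread between replicates with a pseudocount of 5, as for POX02448 to POX02452 (-0.99 in place of -1.80). With edgeR log2 fold changes on counts the medians of 6 stretches moved, as for POX03738 to POX03742 (-2.15 in place of -1.59). A pseudocount of 0.1 moved 2 medians, and leaving out MuPOX05503 replicate 1 moved 1. All 50 members were lower under each of the 11 other fits, which called 2432 to 2885 genes lower across the whole table. In the main fit all 50 were at least 2-fold lower, as were 13.9% of the tested genes. At least 2-fold lower were 48 with library totals and without MuPOX05503 replicate 1, and 47 with limma. Across the table these 3 fits called 1088, 1233 and 977 genes at least 2-fold lower. The members were chosen on this contrast in the same libraries, so nothing is read from these counts. A replicate block on the letters of the titles found 2800 genes lower and 2729 higher, against 2868 and 2804 without it, and 5447 genes were shared. Deviations of libraries with the same letter correlated at 0.00, -0.03 and -0.02, so the letters were not taken as pairs. Of genes called, 49.4% were higher with TMM and 57.8% with library totals. Mean correlations within the 3 stretches that moved together were 0.59 to 0.88 with TMM factors, apart from 0.37 for POX03927 to POX03931, and 0.30 to 0.85 with a pseudocount of 0.1. Levels of members with few reads, such as POX02449 and POX03739, are limited by counting error.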
